A study of Malus domestica with 16 samples.

Results

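The effect of 1-MCP in ozone-stored apples was read from the 2 arrays that paired peel RNA of 1-MCP+O3 fruit with peel RNA of O3 fruit. These arrays carry 4 of the 16 labelled samples of the series and 2 of its 8 arrays. They were chosen by their labels, and no measured value entered the choice. The 1-MCP+O3 fruit were wild-type Granny Smith apples, picked at physiological maturity, exposed to 1-MCP for 24 h at 0 °C and then kept for 6 months in a cold room enriched with O3 at 0.3 μl per litre. The O3 fruit were the same cultivar kept for the same 6 months in the same enriched air without 1-MCP. Both groups thus shared the cold (0 °C), the 95% relative humidity and the ozone. The paper places all array samples directly after cold storage, before ripening at room temperature, a stage it calls presymptomatic. A pair of groups stored without ozone, 1-MCP fruit and Control fruit, were set beside them, on 2 other arrays that used none of the same RNA extracts. The dose of 1-MCP is given differently in the labels and in the methods and is not used here. Each group had 2 peel extracts, called replicates A and B, each from the pooled peel of several fruits of a commercial orchard. Replicate A of 1-MCP+O3 was labelled with Cy3 and replicate B with Cy5, so dye and replicate cannot be told apart within a single array.

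1-MCP (1-methylcyclopropene) is a gas that occupies ethylene receptors and keeps them from sensing the hormone. Apple is a climacteric fruit, in which ethylene drives softening, loss of green colour, aroma and the synthesis of the sesquiterpene alpha-farnesene in the peel. Superficial scald is a browning of the peel of cold-stored apples that 1-MCP is known to delay, and oxidised farnesene and phenols have long been linked to it. Ozone is an oxidant that plants meet with antioxidant and defence enzymes, glutathione transferases among them.

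The array holds 59208 probes in the sense direction of a predicted apple gene (names that start with MDP and end in _r), each for 1 gene model. On the 2 arrays of 1-MCP+O3 against O3, 54.0% and 54.7% of the spots were well above background in Cy3 and 36.1% and 38.0% in Cy5. The levels below are log2 intensities of each extract after normalisation, which compare samples for 1 probe and never 2 probes with each other. A ratio is the log2 of 1-MCP+O3 over O3, so that 1 unit is a doubling in 1-MCP+O3 peel. Errors are moderated standard errors of the mean ratio from limma, which takes part of the spread from all probes. The lowest error of any sense probe was 0.0907. An error printed as 0.09 lies close to that floor and says little of the gene's own spread. A probe was called at an unadjusted p under 0.01, the threshold of the study's methods. No sense probe passed 0.05 after Benjamini-Hochberg adjustment in limma (lowest adjusted p 0.422), while 5387 had an unadjusted p under 0.05. Past an adjusted p of 0.05, limma with intensity trend and robust fitting gave 248 higher and 424 lower sense probes, the software's processed signals 614 and 925, and the 8 arrays with a dye term 3140 and 3146. The calls below rest on the unadjusted threshold.

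At that threshold 1831 of 59208 sense probes differed, which is 3.09% of all tested. The 815 higher in 1-MCP+O3 peel were 1.38% of all tested and the 1016 lower ones 1.72%. Median centring in place of loess gave 130 higher and 290 lower, and leaving out dim probes gave 452 higher and 691 lower. The median ratio of the called probes was 1.28 on the higher side and -1.48 on the lower side. Of the 815 higher probes, 674 were well above background in all 4 extracts, and 29 were at background in both O3 extracts. Of the 1016 lower probes, 833 were above background in all 4 extracts, and 54 were at background in both 1-MCP+O3 extracts. The called probes thus came mostly from genes that were measured in both treatments.

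The 2 arrays resembled each other weakly across all sense probes. Pearson's r between the ratios of replicate A and replicate B was 0.18 over 59203 probes, a description across genes, which are not independent replicates. The same ratios followed the arrays of equal dye placement in fruit stored without ozone far more closely, with r of 0.78 for replicate A and 0.80 for replicate B, although no extract was shared. Across the letters r was 0.36 and 0.30. The plot of the ratios on both arrays shows a cloud along the opposite diagonal, where replicates A and B differ in sign, beside the called probes. For the median sense probe the ratios of A and B lay 0.24 apart, and for 1 in 20 they lay more than 1.75 apart. The part of dye or replicate in any single ratio was not tested, and the mean of the 2 arrays holds each dye once per group.

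**Figure D1:**
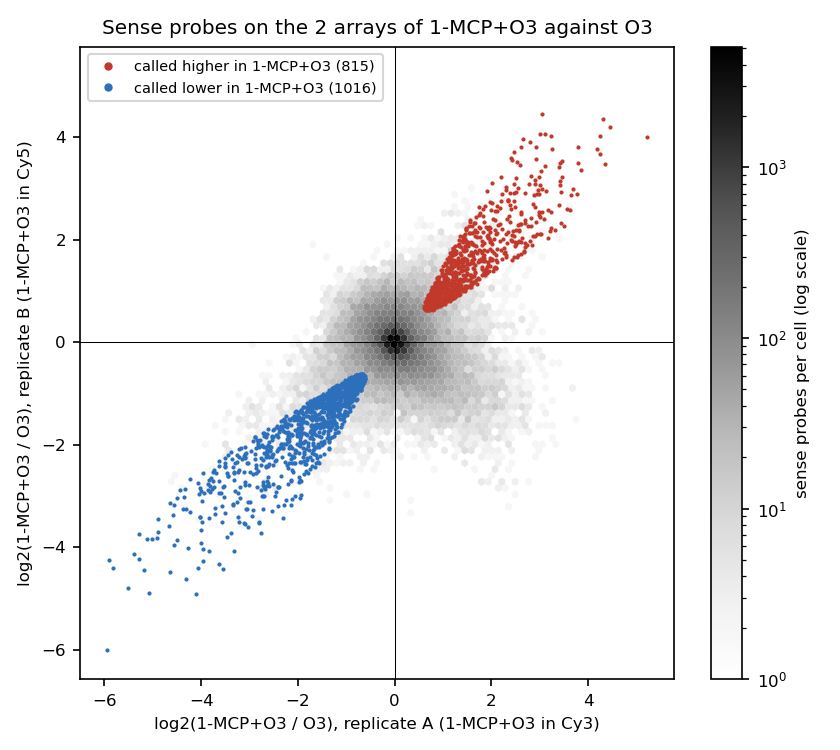
Each sense probe by its log2 ratio of 1-MCP+O3 over O3 in replicate A (x axis) and replicate B (y axis), with grey cells shaded by the number of probes on a log scale. The 815 probes called higher (red) and the 1016 called lower (blue) lie along the diagonal, while a second grey cloud runs across it (r = 0.18 over all probes).

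Function names were available for 1477 sense probes of the study's own probe table, of which only a first part was used. The lists below were matched to those names and chosen with earlier results of these data known. Of the 1477 probes, 1462 had a mean ratio above 0 in 1-MCP over Control, so the lists hold genes that were high after 1-MCP without ozone and nearly no gene that was low. Those calls used other extracts than the arrays of 1-MCP+O3 against O3. In 1-MCP+O3 peel 535 of the 1477 probes were called higher (36.2%) and 4 lower, 87.9% lay above 0 on both arrays, and the median ratio was 1.01. Each list count below stands against these values of its own table, and the 1.38% of all sense probes called higher is no measure of it.

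Genes of the photosynthetic apparatus were higher in 1-MCP+O3 peel. The outer cell layers of a green apple hold chloroplasts, and these genes encode the chlorophyll antenna, the photosystems, the electron carriers and the enzymes of the Calvin cycle. Over the 4 lists, 51 of 95 probes were called higher and none lower, and 92 of 95 lay above 0 on both arrays. Of the whole probe table, a share of 36.2% was called higher and 87.9% lay above 0 on both arrays, and of all sense probes 1.38% and 24.3%. The mean ratios of the 95 ran between 0.16 and 4.13, with a median of 1.98, beside 1.01 in the probe table and 0.01 over all sense probes. Of the 95, 71 had the larger ratio in replicate A. With median centring 6 antenna, 9 photosystem, 3 electron transport and 5 carbon fixation probes were called, in place of 12, 20, 9 and 10. Median centring took the higher calls among all sense probes from 815 to 130. The median ratios in replicates A and B were 2.45 and 1.58 for the antenna and 1.98 and 1.13 for carbon fixation.

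In the antenna, 12 of 28 probes were called higher, with a median ratio of 2.11, and 14 of the 28 were above background in all 4 extracts. LHCA3 (MDP0000135220), an antenna protein of photosystem I, had levels of 13.96 and 13.51 in 1-MCP+O3 peel, against 9.76 and 9.73 in O3 peel. Its ratios were 4.19 and 3.77 in replicates A and B, a mean of 3.98 ± 0.16. LHCA1 (MDP0000259706), another photosystem I antenna protein, gave 13.96 and 13.06 in 1-MCP+O3 peel, against 9.61 and 9.58 in O3 peel, a mean ratio of 3.91 ± 0.29. Both O3 extracts were low and close to each other for these genes, and the groups did not overlap. The photosystem II antenna protein LHCB5 was read by 2 gene models, MDP0000943426 with a mean ratio of 3.64 ± 0.13 and MDP0000233921 with 2.92 ± 0.09. Gene models of 1 family can share sequence, and their probes may then read the same RNA.

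Among subunits of the photosystem cores and of the oxygen-evolving complex, 20 of 32 probes were called higher (median ratio 2.14). PSAG (MDP0000148121), a subunit of photosystem I, had the highest ratio of these lists, with levels of 13.38 and 13.00 in 1-MCP+O3 peel, against 9.13 and 8.98 in O3 peel and a mean of 4.13 ± 0.12. PSAD-2 (MDP0000700880), which docks ferredoxin on photosystem I, stood at 12.23 and 11.48 in 1-MCP+O3 peel, against 8.36 and 8.12 in O3 peel, a mean ratio of 3.61 ± 0.18. The small photosystem I subunits PSAO (MDP0000624964) and PSAN (MDP0000655277) had mean ratios of 3.46 ± 0.09 and 3.11 ± 0.11. On the photosystem II side the extrinsic proteins that shield the manganese cluster moved with them, PSBP-1 (MDP0000361338) by 2.97 ± 0.09, PSBQ-2 (MDP0000715912) by 2.51 ± 0.18 and PsbQ-like 2 (MDP0000481445) by 1.98 ± 0.09. PSBP-1 differed little between the arrays, with ratios of 2.96 and 2.98. NPQ4 (MDP0000289661), the PsbS protein that lets the antenna shed excess light as heat, had a mean ratio of 3.26 ± 0.26, with 1 O3 extract not well above background.

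Electron carriers and the chloroplast ATP synthase had 9 of 12 probes called higher (median ratio 2.07). Examples were CRR7 (MDP0000126450), a factor of the chloroplast NDH complex, at 3.26 ± 0.22, the ferredoxin-NADP reductase LFNR1 (MDP0000811918) at 2.81 ± 0.11 and the ATP synthase gamma chain ATPC1 (MDP0000385730) at 2.74 ± 0.19. Of the Calvin cycle probes 10 of 23 were called higher (median ratio 1.68). Phosphoribulokinase (PRK, MDP0000322896), which regenerates the acceptor of CO2, had levels of 11.45 and 11.35 in 1-MCP+O3 peel, against 8.20 and 7.57 in O3 peel, a mean ratio of 3.51 ± 0.19. Rubisco activase (RCA, MDP0000223905) had levels of 12.05 and 10.99 in 1-MCP+O3 peel, against 8.36 and 8.00 in O3 peel, a mean ratio of 3.34 ± 0.24. The small chain of Rubisco (MDP0000185022) was at 2.25 ± 0.21, and 1 of its 2 O3 extracts was not well above background. All named members of these lists had higher levels in both 1-MCP+O3 extracts than in either O3 extract. They were picked as called members with the largest ratios or were named by the study. That choice favours such a gap, which says nothing of the other members.

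Photorespiration, which recycles the product of the oxygenase reaction of Rubisco, had 4 of 11 probes called higher (median ratio 1.24). That share is near the 36.2% of the probe table, whose median ratio was 1.01. A probe for a subunit of glycine cleavage (MDP0000613170) was not well above background in either O3 extract and was at least 2.89-fold higher in 1-MCP+O3 peel, where its levels were 8.37 and 7.22. Of the probes for chlorophyll and carotenoid metabolism, 12 of 31 were called higher (median ratio 1.06), also near the values of the table. They included geranylgeranyl reductase (MDP0000159873), which makes the phytol tail of chlorophyll, at 2.89 ± 0.24, and the chelatase subunit GUN5 (MDP0000294642), which commits porphyrin to chlorophyll, at 2.10 ± 0.09 with 1 O3 extract not above background. NCED4 (MDP0000769041), a dioxygenase that cleaves carotenoids, was also higher, at 2.00 ± 0.16.

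**Figure D2:**
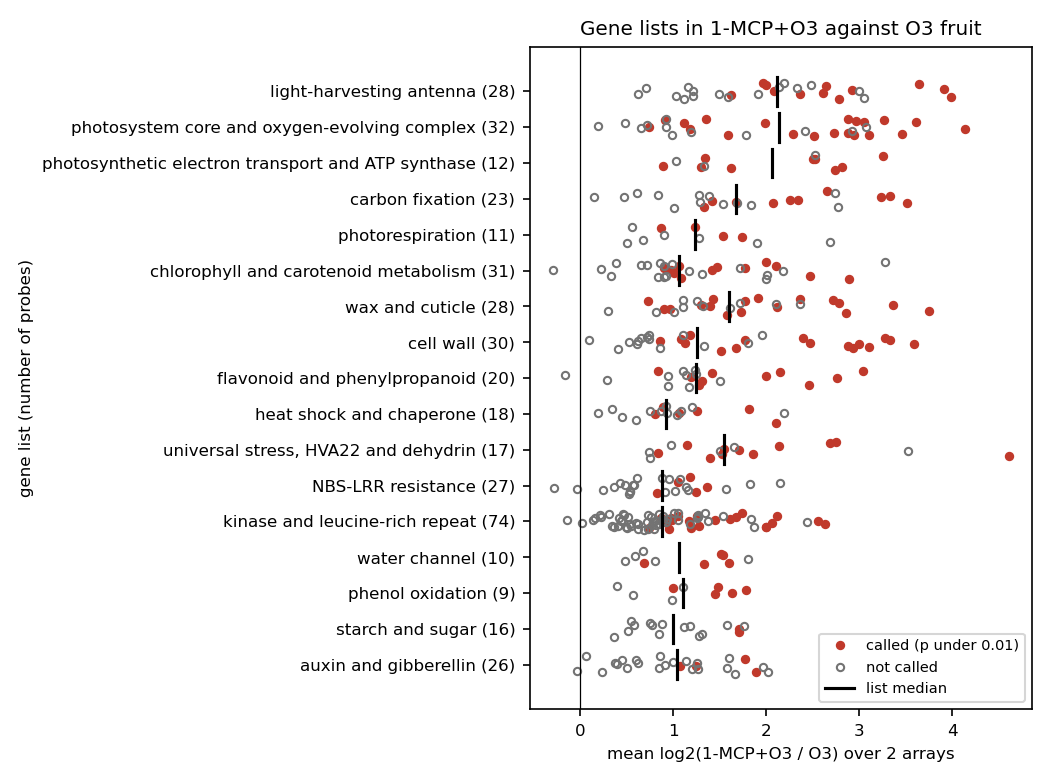
Mean log2 ratio of 1-MCP+O3 over O3 (x axis) for each probe of the 17 lists with at least 9 probes (y axis, number of probes in brackets), red where called and open where not, with a black bar at the list median. The photosynthesis lists reach 4.13, and 1 universal stress probe lies farther out at 4.61.

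Genes of the fruit surface were called higher too. The cuticle is the layer of cutin and wax that seals the apple peel, and its genes act in the epidermis. The list was drawn from the probe table, whose genes nearly all lay above 0 in 1-MCP over Control. Its detection therefore cannot serve as a check of the labelled tissue. All 28 probes of the wax and cuticle list were measured and 23 were well above background in all 4 extracts. The summed level of the list was 16.69 and 16.91 in 1-MCP+O3 peel and 14.88 and 14.96 in O3 peel (log2). Of the 28, 17 were called higher and none lower, with a median ratio of 1.60, beside 36.2% called higher and a median of 1.01 in the probe table it was drawn from. A fatty acyl-CoA reductase (MDP0000271686), an enzyme that makes wax alcohols, had levels of 12.76 and 13.25 in 1-MCP+O3 peel, against 9.71 and 8.80 in O3 peel, a mean ratio of 3.75 ± 0.44. A second gene model of that enzyme (MDP0000298128) had levels of 11.06 and 11.68 in 1-MCP+O3 peel, against 8.14 and 7.89 in O3 peel, a mean ratio of 3.36 ± 0.29. The fatty acid hydroxylase CYP86B1, known from Arabidopsis suberin, was at 2.86 ± 0.23 and 2.78 ± 0.17 for its models MDP0000234292 and MDP0000119148. In this list 11 of 28 probes had the larger ratio in replicate A. With median centring 8 of the 28 were called higher.

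A peel strip also holds vascular tissue. Of the 6 probes of its marker list 4 were called higher, and all 6 lay above 0 on both arrays, in a table where 36.2% were called higher and 87.9% lay above 0. The summed level was 12.58 and 11.48 in 1-MCP+O3 peel and 10.25 and 9.89 in O3 peel (log2), with 4 of the 6 above background in all extracts. Its leading members were 2 gene models of XND1, a NAC factor of xylem (MDP0000240094 at 2.48 ± 0.28 and MDP0000135374 at 2.22 ± 0.09). The part of a different share of vascular cells in the other results was not tested, and fewer cells of a type cannot be told apart from less RNA per cell in peel strips.

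Among the genes of cell wall remodelling in the table, 16 of 30 were called higher (median ratio 1.26), and 5 with median centring. A xyloglucan endotransglycosylase (MDP0000213179), an enzyme that cuts and rejoins hemicellulose, had levels of 14.80 and 14.86 in 1-MCP+O3 peel, against 11.69 and 11.42 in O3 peel, a mean ratio of 3.27 ± 0.13. Its relatives MDP0000333317 and MDP0000269483 had mean ratios of 3.33 ± 0.29 and 3.10 ± 0.34. An inhibitor of invertase and pectin methylesterase (MDP0000679993) was at 3.58 ± 0.31. Of the flavonoid and phenylpropanoid probes 10 of 20 were called higher (median ratio 1.24), and 2 with median centring. The probe table that both lists came from had 36.2% called higher and a median ratio of 1.01. Dihydroflavonol reductase (DFR), a step towards anthocyanins and tannins, was read by MDP0000925447, with levels of 12.18 and 11.82 in 1-MCP+O3 peel, against 9.27 and 8.65 in O3 peel and a mean ratio of 3.04 ± 0.12, and by MDP0000199192 at 2.76 ± 0.17. MYB111 (MDP0000793261), a regulator of flavonol synthesis in Arabidopsis, was at 2.46 ± 0.13.

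Stress proteins held the highest ratio of the whole comparison. Of the universal stress, HVA22 and dehydrin list 11 of 17 probes were called higher (median ratio 1.55), and 1 with median centring. A universal stress protein (MDP0000142824) had levels of 14.52 and 13.65 in 1-MCP+O3 peel, against 9.30 and 9.64 in O3 peel, with ratios of 5.21 and 4.01 and a mean of 4.61 ± 0.39. A metallothionein-like protein (MDP0000168825), of a family that binds metals, was at 2.75 ± 0.23. Of heat shock proteins and chaperones 6 of 18 were called higher, with a median ratio of 0.93. Both values were below those of the probe table, 36.2% and 1.01. Among those called was the co-chaperone BAG7 (MDP0000243873) at 2.11 ± 0.13. The small heat shock protein HSP17.8 (MDP0000574524) was not called, with ratios of 0.75 and -0.35, and its groups overlapped.

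The receptor lists lay below the values of the probe table (36.2% called higher, median ratio 1.01). Of 74 probes for kinases and leucine-rich repeat proteins 22 were called higher, with a median ratio of 0.88, and of 27 for NBS-LRR resistance proteins 5, with a median of 0.88. A leucine-rich repeat protein (MDP0000331536) had levels of 9.12 and 8.89 in 1-MCP+O3 peel, against 7.15 and 6.73 in O3 peel, a mean ratio of 2.06 ± 0.11. Water channels had 5 of 10 probes called higher, putative peroxidases and other phenol oxidases 5 of 9, auxin and gibberellin response genes 4 of 26, and starch and sugar genes 2 of 16, the last pair below the share of the table. The lists of ethylene (2 probes), terpenoid (3 probes) and glutathione transferase genes (2 probes) held too few members of the table for a count, with 0, 1 and 2 called higher. No probe of any list was called lower.

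The genes of ripening that the study named one by one lay mostly below 0. Of 11 genes for ethylene sensing, farnesene, the cell wall and phenol metabolism, 4 were called lower and 1 higher, and 9 lay below 0 on both arrays, against 22% of all sense probes. The study had named them for their expression on arrays of this series, some as differential genes for qPCR. These counts are therefore a description and no independent test. ERS1 (MDP0000242413), an ethylene receptor whose transcript is known to rise with ripening in apple, had levels of 7.30 and 7.39 in 1-MCP+O3 peel, against 8.98 and 9.49 in O3 peel. Its ratios were -1.68 and -2.10, a mean of -1.89 ± 0.16, and the groups did not overlap. Beta-galactosidase MdBGal1 (MDP0000416548), which trims cell wall galactans, had levels of 8.46 and 8.74 in 1-MCP+O3 peel, against 10.92 and 11.65 in O3 peel, a mean ratio of -2.68 ± 0.17. MdFQR1 (MDP0000393227), a quinone reductase, stood at 11.08 and 12.11 in 1-MCP+O3 peel, against 13.62 and 13.97 in O3 peel, a mean ratio of -2.19 ± 0.23.

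Polyphenol oxidase (MDP0000699845), the enzyme that turns phenols into brown quinones, had levels of 11.90 and 12.27 in 1-MCP+O3 peel, against 15.64 and 14.77 in O3 peel. The ratios were -3.73 and -2.50, a mean of -3.12 ± 0.40, which is 8.66-fold lower in 1-MCP+O3 peel. MdAFS1 (MDP0000199152), the alpha-farnesene synthase of the peel, had levels of 12.08 and 13.52 in 1-MCP+O3 peel, against 15.80 and 15.12 in O3 peel, and its spot was saturated in 1 of the O3 extracts. Its ratios of -3.72 and -1.59 differed by more than 2 units between the arrays, and with a mean of -2.66 ± 0.67 it was not called. Farnesyl diphosphate synthase FPS2 (MDP0000198736), which supplies the substrate of farnesene, likewise was below 0 on both arrays at -1.67 and -0.72 without a call. The pectin methylesterase MdPME2 (MDP0000222620) at -1.15 ± 0.18 and chalcone synthase CHS (MDP0000432621) at -0.91 ± 0.22 were not called either. MdPOX (MDP0000209189), a peroxidase, had ratios of -0.11 and -1.42, and the expansin-like MdEXLA (MDP0000568045) of -0.31 and 0.52. The single member called higher was MdSLC (MDP0000877937), an anion exchanger, with levels of 10.86 and 10.30 in 1-MCP+O3 peel, against 9.02 and 8.67 in O3 peel and a mean ratio of 1.74 ± 0.11.

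**Figure D3:**
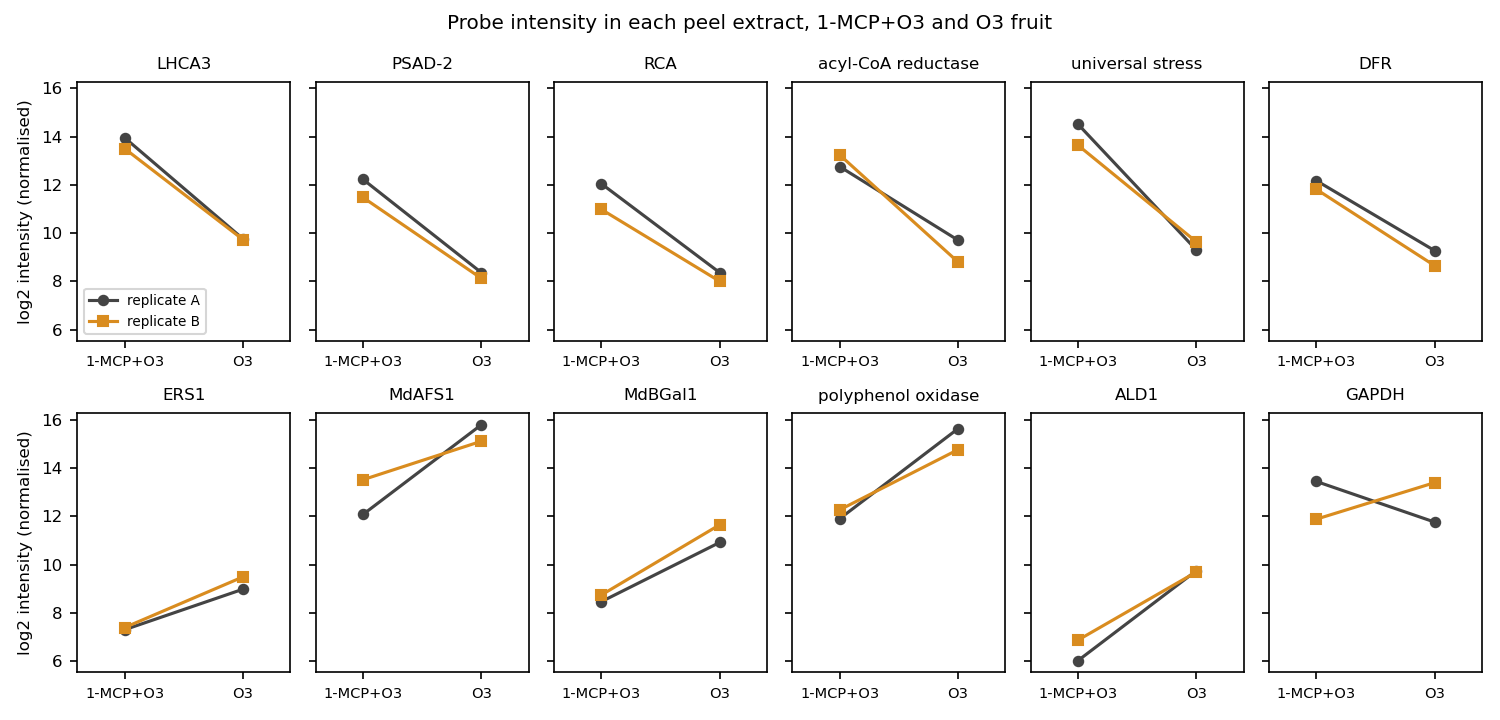
Normalised log2 intensity (y axis) of 12 probes in each peel extract, with 1-MCP+O3 left of O3 and a line for each replicate (A grey circles, B orange squares). LHCA3 to DFR were higher in both 1-MCP+O3 extracts, ERS1 to ALD1 lower, and the lines of GAPDH cross.

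Glutathione transferases, which couple glutathione to oxidised or foreign compounds, were lower in 1-MCP+O3 peel on both arrays for all 8 genes the study named, and 3 of the 8 were called. Of all sense probes 22% lay below 0 on both arrays and 1.72% were called lower. The study picked these 8 genes from a network built partly on arrays that share these extracts. The counts therefore describe that choice and are no test of the family. ATGSTU8 model MDP0000178304 had levels of 10.30 and 10.57 in 1-MCP+O3 peel, against 12.88 and 13.36 in O3 peel, a mean ratio of -2.69 ± 0.11. Another ATGSTU8 model, MDP0000805474, had levels of 7.87 and 8.80 in 1-MCP+O3 peel, against 11.25 and 10.89 in O3 peel and, with ratios of -3.38 and -2.10, was not called. ATGSTF12 (MDP0000252292) at -1.27 ± 0.09, with 1 of its 1-MCP+O3 extracts not well above background, and ATGSTU25 (MDP0000722969) at -0.74 ± 0.09 were called lower, the call of ATGSTU25 being kept in 4 of the 11 other settings. The other members lay at -1.24 (ATGSTU8, MDP0000766223), -1.07 (ATGSTU21, MDP0000566567), -0.86 (In2-1, MDP0000188674) and -0.62 (ATGSTF8, MDP0000256360). The 2 members of the family in the 1-MCP-selected table moved up instead, the microsomal enzyme MDP0000256240 by 1.09 ± 0.10 and ATGSTU19 (MDP0000138709) by 1.09 ± 0.09, and these calls were kept in only 3 and 4 of the 11 other settings. In O3 over Control, which shares the O3 extracts, the 8 lower genes had mean ratios between 0.72 and 2.05. In 1-MCP+O3 over Control, which shares the 1-MCP+O3 extracts, they lay between -0.82 and 0.54.

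The defence genes that the study named gave 3 calls lower and 1 higher among 12, beside 1.72% and 1.38% of all sense probes. They too were named from arrays of this series, so the counts are no independent test. ALD1 (MDP0000386317), which makes the defence signal pipecolic acid in Arabidopsis, had levels of 6.02 and 6.87 in 1-MCP+O3 peel, against 9.75 and 9.69 in O3 peel. Its ratios were -3.73 and -2.82, a mean of -3.28 ± 0.30. BG3 (MDP0000327191), a beta-1,3-glucanase of the pathogenesis-related kind, had levels of 7.85 and 7.82 in 1-MCP+O3 peel, against 9.63 and 9.92 in O3 peel, a mean ratio of -1.94 ± 0.14. The receptor-like protein RLP15 (MDP0000302222) was at -1.54 ± 0.19. For ALD1 and RLP15, 1 of the 1-MCP+O3 extracts was not well above background. For these 3 the mean ratios in O3 over Control were 1.55, 0.81 and 1.55, and in 1-MCP+O3 over Control -1.73, -0.19 and -0.11, comparisons that share extracts with the one described. The receptor kinase RLK1 (MDP0000134162) at -2.99 and -1.13 and the lipase-like PAD4 (MDP0000770174) at -1.41 and -0.49 were below 0 on both arrays without a call.

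The 32 transcription factors of the study's regulatory modules split in both directions, with 8 called higher and 4 lower, beside 1.38% and 1.72% of all sense probes. The modules were inferred partly from differential genes on arrays that share these extracts, so the counts are no independent test. The homeodomain factor HD-ZIP MDP0000859459 had levels of 10.43 and 9.90 in 1-MCP+O3 peel, against 8.58 and 7.56 in O3 peel, a mean ratio of 2.09 ± 0.18, and a second HD-ZIP factor (MDP0000599845) was at 1.39 ± 0.14. NF-YA MDP0000183865, a subunit of a CCAAT-binding factor, was at 1.64 ± 0.15, and the auxin response factor MDP0000194603 at 1.24 ± 0.11. Called higher at smaller ratios were a TCP factor (MDP0000374900, 1.05), a CO-like factor (MDP0000271388, 0.90), an LSD factor (MDP0000350023, 0.82) and a bHLH factor (MDP0000254650, 0.67), whose gene model the probe table names an aldo/keto reductase. For the CO-like and the bHLH factor 1 O3 extract was not well above background. Of 11 other settings the TCP and LSD factors kept their call in 4, the auxin response factor in 5 and the bHLH factor in 6, and the other 4 risers in 7 to 10.

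On the lower side a MADS factor (MDP0000212925), annotated after AGL80 of the Arabidopsis embryo sac, had levels of 5.80 and 6.57 in 1-MCP+O3 peel, against 9.10 and 9.48 in O3 peel. Its ratios were -3.30 and -2.91, a mean of -3.10 ± 0.15, and 1 of the 1-MCP+O3 extracts was not well above background. The 2 bZIP factors MDP0000239026 and MDP0000249561 had mean ratios of -1.29 ± 0.18 and -1.02 ± 0.09, and the YABBY factor MDP0000261432 -1.11 ± 0.13. The MADS call was kept in all 11 other settings, the YABBY call in 8 and the bZIP calls in 5 (MDP0000239026) and 6 (MDP0000249561). MYB MDP0000787808 (-1.90 and -3.09), bHLH MDP0000137325 (-2.80 and -1.20) and ERF MDP0000127134 (-1.19 and -2.20) were below 0 on both arrays without a call. ERF MDP0000932292, a member of the ethylene response factor family, had ratios of 1.47 and -0.58, so its arrays disagreed in sign.

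**Figure D4:**
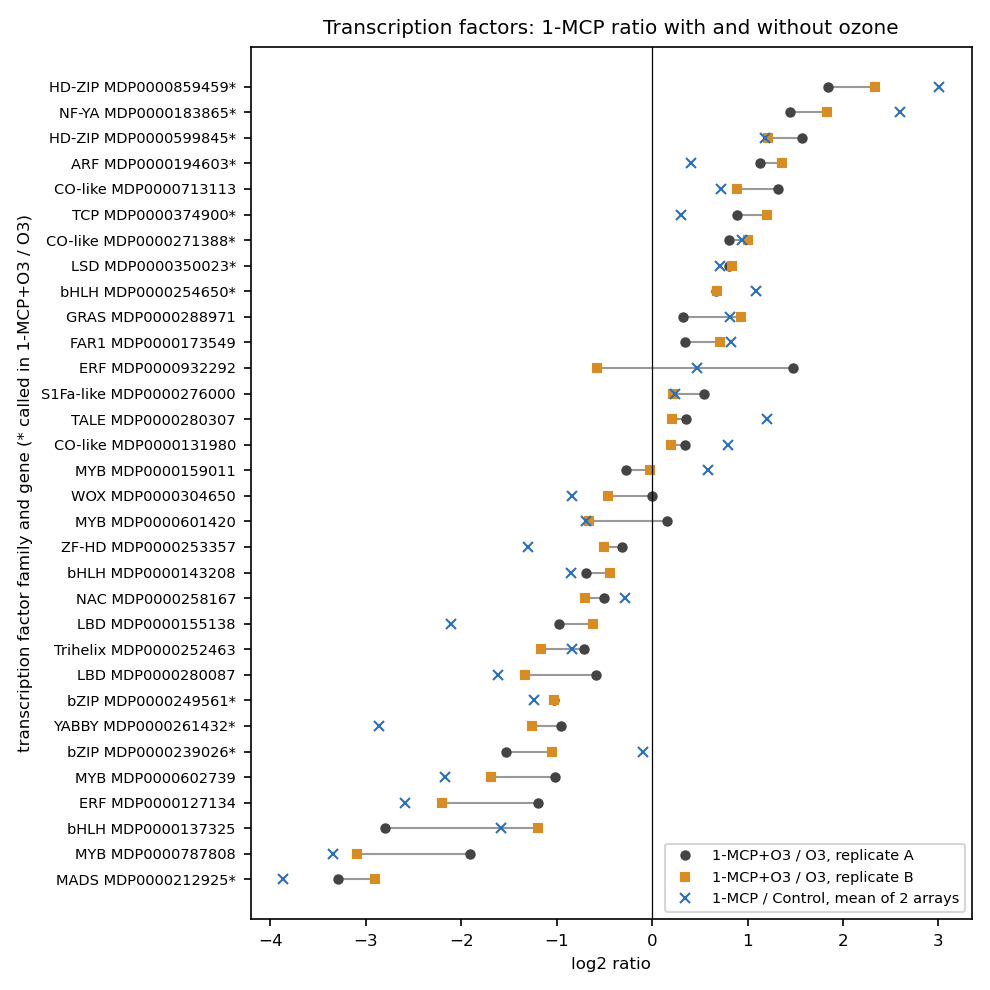
Log2 ratios (x axis) of the 32 transcription factors (y axis, sorted by mean, called ones with a star) for 1-MCP+O3 over O3 in replicate A (grey circles) and replicate B (orange squares), and the mean for 1-MCP over Control (blue crosses). HD-ZIP MDP0000859459 is at the top with 1.85 and 2.34 and MADS MDP0000212925 at the bottom with -3.30 and -2.91.

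The 5 qPCR references of the study were not called, with mean ratios between -0.30 and 0.09. The study had chosen them because none of its comparisons, this one among them, called them differential. Their lack of a call was thus set by that choice. GAPDH (MDP0000645828), the glycolytic enzyme often used as a reference, had ratios of 1.69 and -1.52. Its levels were 13.45 and 11.88 in 1-MCP+O3 peel, against 11.76 and 13.40 in O3 peel. The Cy3 extract was the brighter one on both arrays. VDAC (MDP0000271281), a mitochondrial channel, had ratios of -0.80 and 0.19, and the prenylyltransferase (MDP0000146514) -0.77 and 0.40, also with a change of sign between the arrays. The WD-40 repeat protein (MDP0000251161) at -0.20 and -0.02 and the drought-responsive family protein (MDP0000217860) at -0.18 and -0.39 stayed closer to 0.

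By the size of the change, 4 of the 10 largest rises were antenna or photosystem I genes already described (LHCA3, LHCA1, LHCB5 MDP0000943426 and PSAG), beside the universal stress protein and the acyl-CoA reductase. The fasciclin-like arabinogalactan protein FLA2 (MDP0000904458), of a family tied to cell walls, had levels of 12.06 and 11.29 in 1-MCP+O3 peel, against 7.80 and 7.62 in O3 peel, a mean ratio of 3.96 ± 0.20. The other rises of that size came from genes without a function name, MDP0000156578 at 4.33 ± 0.09, MDP0000196174 at 4.32 ± 0.12 and MDP0000865961 at 3.80 ± 0.09, the last with 1 O3 extract not well above background. For MDP0000156578 the ratios of 4.30 and 4.36 differed little between the arrays.

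None of the 10 largest falls had a function name in the sources used here, and they are given by gene model. MDP0000326576 had levels of 8.88 and 8.68 in 1-MCP+O3 peel, against 14.81 and 14.69 in O3 peel. Its ratios were -5.94 and -6.01, a mean of -5.97 ± 0.09, about 62.8-fold lower in 1-MCP+O3 peel. MDP0000219062 had levels of 10.50 and 10.43 in 1-MCP+O3 peel, against 16.02 and 15.22 in O3 peel, a mean ratio of -5.15 ± 0.24, and MDP0000873235 of 8.45 and 8.52 in 1-MCP+O3 peel, against 13.53 and 13.40 in O3 peel, a mean ratio of -4.98 ± 0.11. The bright O3 signal and the dim 1-MCP+O3 signal of these genes were above background on both arrays, so the falls were measured on both sides. The other 7 had mean ratios between -4.51 (MDP0000510251) and -5.11 (MDP0000279839). MDP0000279839 was saturated in 1 O3 extract, and MDP0000510251 was not well above background in 1 of the 1-MCP+O3 extracts.

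The same question was then put to fruit stored without ozone, where 1-MCP over Control gave 2744 calls among the sense probes (4.63%), 1340 higher (2.26%) and 1404 lower (2.37%). Of the 1340 higher probes, 500 were also called higher in 1-MCP+O3 over O3 and none lower, against 1.38% and 1.72% of all sense probes. Of the 1404 lower probes, 514 were called lower in ozone and none higher. The shared calls were 61.3% of the 815 probes higher in ozone and 50.6% of the 1016 lower ones. No extract was common to these comparisons, but the dye placement by replicate letter was. Above 0 on both ozone arrays were 89.4% of the 1340 higher probes (all sense probes, 24.3%), and below 0 on both were 92.4% of the 1404 lower probes (all sense probes, 22%). The median ratio of the 1340 probes was 1.04 with ozone and 1.24 without, and that of the 1404 was -1.12 with ozone and -1.32 without. The probes were chosen on the arrays without ozone, so these medians are a description.

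A test of the difference itself, on the 4 arrays together, called 261 of 59208 sense probes (0.441%), of which 143 had a higher 1-MCP ratio with ozone than without (0.242%) and 118 a lower one (0.199%). The arrays with and without ozone lay on different slides with different dates, and the paper used separate cold rooms. In this difference ozone cannot be told apart from slide, date and room. No sense probe passed 0.05 after adjustment in limma (lowest adjusted p 1.00) under any of the settings tried, and 1449 had an unadjusted p under 0.05. The count was 49 when probes not above background in at least 1 channel on all 4 arrays were left out of the fit, and 9 with median centring. The 8 arrays fitted together with a dye term gave 1535. The photosynthesis genes named by the study were called in both settings and had no called difference: PSAD-2 had a ratio of 3.61 with ozone and 4.30 without, PSAN 3.11 and 3.32, and RCA 3.34 and 3.69. The same held for the wax enzyme MDP0000271686, with 3.75 and 3.79, and for the quinone reductase MdFQR1 (MDP0000393227), with -2.19 and -3.54. Polyphenol oxidase (MDP0000699845) was called with ozone, at -3.12, and not without, at -4.50, and the difference had a standard error of 1.06 and was not called. A missing call does not show that the effects were equal. Over whole lists, median ratios with and without ozone were 2.11 and 3.15 (antenna), 2.14 and 2.75 (photosystem) and 1.68 and 2.11 (carbon fixation). Electron transport had 2.07 in both. The difference was called lower for 2 antenna, 3 photosystem and 3 carbon fixation probes, and higher for 1 antenna probe. For the whole probe table the medians were 1.01 and 1.19, with 44 of 1477 called lower and 9 higher. The lists hold genes high without ozone, which favours smaller ratios with it.

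Among the named genes some had a smaller change with ozone. ERS1 had a mean ratio of -1.89 with ozone and -3.09 without, a difference of 1.20, and MdBGal1 -2.68 and -3.89, a difference of 1.21. The YABBY factor MDP0000261432 had -1.11 with ozone and -2.86 without. Of the 5 most positive differences (above background in at least 1 channel on all 4 arrays), 4 came from smaller negative ratios with ozone, at 2.36 (MDP0000214562), 2.36 (MDP0000318256), 2.47 (MDP0000287459) and 2.65 (MDP0000246999). MDP0000214562 was not well above background in 1 of the 1-MCP+O3 extracts and MDP0000318256 in 1 of the 1-MCP extracts, so the sizes of their ratios there are limited by background. The exception was MDP0000493644, with levels of 10.37 and 9.46 in 1-MCP+O3 peel, against 7.86 and 7.55 in O3 peel. Its ratio of 1-MCP+O3 over O3 was 2.21 ± 0.21, and that of 1-MCP over Control -0.50. In O3 over Control, which shares the O3 extracts, MDP0000493644 had -1.37, ERS1 -1.11, MdBGal1 -0.55 and the YABBY factor -1.25. The other 4 had -1.60 (MDP0000214562), 1.08 (MDP0000318256), 1.72 (MDP0000287459) and 1.93 (MDP0000246999) there.

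Of the 5 most negative differences, 4 belonged to genes that were called lower with ozone and had no call without. MDP0000125865 had levels of 9.46 and 8.87 in 1-MCP+O3 peel, against 12.26 and 12.37 in O3 peel, a mean ratio of -3.15 ± 0.24, and -0.38 without ozone. MDP0000889090 had -2.31 with ozone and -0.14 without, MDP0000870576 -2.17 and -0.42, and MDP0000269295 -1.33 and 0.43. MDP0000870576 was not well above background in 1 of the 1-MCP+O3 extracts, nor MDP0000889090 in 1 of the 1-MCP extracts. The bZIP factor MDP0000239026 showed the same order, with -1.29 and -0.09. MDP0000220902 was called lower in both, with -4.76 and -2.48. In O3 over Control, which shares the O3 extracts, MDP0000125865, MDP0000889090, MDP0000870576 and MDP0000220902 had ratios of 4.70, 3.29, 2.34 and 3.71. In 1-MCP+O3 over Control they had 1.23, 0.43, -0.31 and -1.57.

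**Figure D5:**
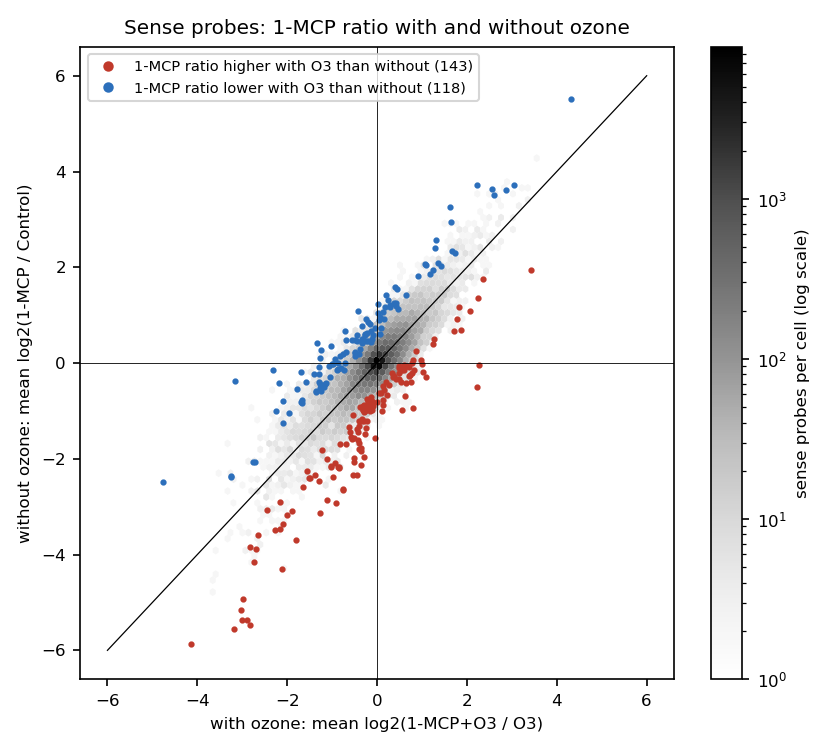
Each sense probe by its mean log2 ratio of 1-MCP+O3 over O3 (x axis) and of 1-MCP over Control (y axis), with grey cells shaded by the number of probes on a log scale and a line of equal ratios. The 143 probes with a higher ratio with ozone (red) and the 118 with a lower one (blue) lie on either side of that line.

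Every sense probe has an antisense partner on the array, which reads the opposite strand of the same gene model. Of the 59243 antisense probes 393 were called in 1-MCP+O3 over O3 (0.663%), 142 higher (0.24%) and 251 lower (0.424%). Beside the 815 sense probes called higher, 44 partners were called higher and none lower, and beside the 1016 called lower, 94 partners were called lower and none higher. The partners followed at smaller ratios, with medians of 0.13 and -0.18. Among the 95 photosynthesis probes 18 partners were called higher. LHCA1 (MDP0000259706) had a ratio of 1.78 on the antisense strand against 3.91 on the sense strand, PSAD-2 1.51 against 3.61, and the xyloglucan endotransglycosylase MDP0000333317 2.22 against 3.33.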

How the data were processed

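Peel RNA was hybridised to 2-colour Agilent arrays. Scanned images were read by the authors in Agilent's Feature Extraction. From each deposited spot file the median spot intensity and the median background intensity of both dyes were taken, values not yet corrected or scaled. The deposited processed intensity had been corrected by that software and served as an alternative. Median intensities were corrected by normexp (offset 50) and normalised by loess within each array. Control and outlier spots were left out, and spots of 1 probe were averaged over 133709 probes. Ratios were turned to 1-MCP+O3 over O3. The 2 arrays were fitted with lmFit and eBayes (limma 3.58.1, R 4.3.3, statmod 1.5.0), and Benjamini-Hochberg values were taken over all probes. The difference of the 1-MCP effect used the 2 arrays of 1-MCP over Control as well. Channel levels were scaled between the 8 arrays by Aquantile. With 2 extracts per group, each from pooled fruit, p-values rest on the spread between these extracts and on a spread that eBayes shares over all probes. Either may be technical, and precision is limited by there being 2 arrays. The steps were tested on simulated data.

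The genes named were those with an identifier in the study's text, network figure, primers or regulator list, the 10 largest rises and 10 largest falls above background, up to 4 called members per list, and 5 differences on each side. Members and lists were chosen with earlier results of these data known. Alternatives were other background and scaling settings, filters, fits, thresholds and leaving out each array. The replicate letter pairs the 2 extracts of an array. Probe sequences, metabolites and proteins were not analysed here.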

Additional observations from a re-analysis of the deposited data

Results flagged for a closer look

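The difference between the 1-MCP effect with and without ozone passed the unadjusted threshold for these named genes, and none passed after adjustment in limma (lowest adjusted p 1.00). The first 5 higher and the first 5 lower genes were picked for their place in this test. Ozone cannot be told apart from slide, date and cold room in it. A higher 1-MCP ratio with ozone than without was found for MDP0000493644 (difference 2.72), MDP0000246999 (2.65), MDP0000287459 (2.47), MDP0000214562 (2.36), MDP0000318256 (2.36), the YABBY factor MDP0000261432 (1.75), MdBGal1 MDP0000416548 (1.21), ERS1 MDP0000242413 (1.20), the ZF-HD factor MDP0000253357 (0.90) and the auxin response factor MDP0000194603 (0.84). A lower ratio with ozone was found for MDP0000125865 (-2.77), MDP0000220902 (-2.28), MDP0000889090 (-2.17), MDP0000269295 (-1.76), MDP0000870576 (-1.75), the bZIP factor MDP0000239026 (-1.20), the TALE factor MDP0000280307 (-0.92) and the unnamed rise MDP0000196174 (-1.19). Groups of 2 extracts allow no search for single samples that stand apart.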

How the results depend on the processing

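Probes called higher, called lower and called different numbered 815, 1016 and 261. By threshold they were 2632, 2755 and 1449 at p under 0.05, 84, 131 and 13 at p under 0.001, and 0, 0 and 0 at an adjusted p under 0.05 (162, 279 and 0 with a normexp offset of 0, and 30, 68 and 0 without replicate B). Median centring gave 130, 290 and 9, and the 8 arrays fitted together with a dye term 4432, 4212 and 1535. Without dim probes 452 were higher and 49 different, with a normexp offset of 0, 70 were different, and with intensity trend and robust fitting 171. Without the replicate block of the array (each channel a sample), 1269, 1475 and 336 were called. Leaving out replicate A or B, with the spread pooled over the other comparisons, gave 1037 to 1179 higher, 1025 to 1485 lower and, with the arrays without ozone left out in turn too, 236 to 572 different. Leaving out replicate B alone moved the last count past 1.5 times, to 572. Of 83 called genes checked singly none changed direction under any of these, and 43 kept their call with median centring, 68 without replicate B, 69 without replicate A and 72 to 83 under the others. All called probes had the same sign on both arrays, so leaving out a replicate could not reverse their direction. Of the genes without a call, some changed sign. MDP0000251161 was at 0.0089 with median centring and 0.018 with the dye term. Without replicate A and without replicate B the values were 0.40 and -0.77 for MDP0000146514, 0.19 and -0.80 for MDP0000271281, -0.46 and 0.0020 for MDP0000304650 (a WOX factor), 0.52 and -0.31 for MDP0000568045, -0.35 and 0.75 for MDP0000574524, -0.67 and 0.15 for MDP0000601420 (a MYB factor), -1.52 and 1.69 for MDP0000645828, and -0.58 and 1.47 for MDP0000932292. The study's modules class MDP0000304650 as WOX, while the probe table names it an HD-ZIP protein. The causes of these changes of sign were not tested. Only 36.1% to 54.7% of the spots per channel were well above background, and the other values are limited by it.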
